A study of Mus musculus with 12 samples.

Results

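9 genes at the 3′ sides of the HoxA and HoxD clusters were followed across 12 arrays: Hoxa2, Hoxa3, Hoxa4, Hoxa5, Hoxa6 and Hoxa7 of HoxA, and Hoxd1, Hoxd3 and Hoxd4 of HoxD. They were chosen by name, as probes whose accession maps to these genes, and are 9 of 21367 named genes on the array. Each had 1 probe. A gene entered the tests if some group had its probe well above background on each of its 3 arrays, which kept 8 of the 9 among 14444 tested genes. Hoxd1 did not pass.

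The samples were mouse embryonic fibroblasts, connective tissue cells grown from C57BL/6 embryos of embryonic day 12.5 to 13.5 and transduced with viral vectors. The 4 groups of 3 arrays carried a short hairpin RNA against the mouse p53 mRNA (shp53), an oncogenic form of RAS (RASV12), shp53 and then RASV12 (the shp53-first cells), or RASV12 and then shp53 (the RASV12-first cells). No group without a vector was analysed here. The series title sets transformation after senescence against transformation without it, and the order of the vectors is the comparison that bears on it. The design text calls the replicates independent biological replicates, and the labels do not say which embryos, litters or clones they came from.

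Hox genes encode homeodomain transcription factors that give cells along the body and limb axes their position. In each cluster the genes lie in the order in which they are switched on in the embryo, from the 3′ end, active early and up to anterior levels, to the 5′ end, active late and in posterior and distal tissue. Cultured fibroblasts keep much of the Hox pattern of the place they came from. Retinoic acid activates 3′ Hox genes, Polycomb complexes hold silent ones closed and trithorax complexes keep active ones open, and Hox proteins bind DNA together with PBX, MEIS and PKNOX partners.

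Promoter sequences from RefSeq (build GRCm38.p6) were held for 8 of the 9 genes, all but Hoxa4. The 250 bases before the annotated start are shown for the 4 tested genes with the widest range of group means, Hoxa2, Hoxa3, Hoxa5 and Hoxd3, and for Hoxa7, which was called in no comparison. Capitals mark TGATNNAT, a core bound by PBX and Hox proteins together, AGGTCA, the half-site of nuclear receptors such as those for retinoic acid, and TATAAA, the TATA box, each sought on both strands.
Hoxa2, chr6:52164832-52165081, minus strand: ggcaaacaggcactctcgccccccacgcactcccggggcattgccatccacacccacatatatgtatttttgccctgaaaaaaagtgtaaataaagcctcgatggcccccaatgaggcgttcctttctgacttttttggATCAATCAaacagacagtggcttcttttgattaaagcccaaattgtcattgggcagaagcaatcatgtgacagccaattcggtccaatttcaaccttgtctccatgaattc
Hoxa3, chr6:52213068-52213317, minus strand: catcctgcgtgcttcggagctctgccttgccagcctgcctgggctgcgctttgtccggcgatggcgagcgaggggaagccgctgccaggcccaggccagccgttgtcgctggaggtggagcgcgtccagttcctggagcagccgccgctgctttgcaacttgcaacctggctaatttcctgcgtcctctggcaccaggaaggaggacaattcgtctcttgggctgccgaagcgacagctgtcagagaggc
Hoxa5, chr6:52204588-52204837, minus strand: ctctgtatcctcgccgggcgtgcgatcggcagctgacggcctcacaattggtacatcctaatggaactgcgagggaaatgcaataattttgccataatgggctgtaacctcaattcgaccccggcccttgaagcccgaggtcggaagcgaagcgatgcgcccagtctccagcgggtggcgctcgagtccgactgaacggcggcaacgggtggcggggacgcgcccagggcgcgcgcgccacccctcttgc
Hoxa7, chr6:52218574-52218823, minus strand: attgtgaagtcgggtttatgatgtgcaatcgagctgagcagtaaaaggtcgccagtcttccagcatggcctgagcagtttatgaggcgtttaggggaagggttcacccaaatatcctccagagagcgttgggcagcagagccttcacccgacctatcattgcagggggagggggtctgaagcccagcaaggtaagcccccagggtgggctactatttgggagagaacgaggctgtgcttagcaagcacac
Hoxd3, chr2:74711743-74711992, plus strand: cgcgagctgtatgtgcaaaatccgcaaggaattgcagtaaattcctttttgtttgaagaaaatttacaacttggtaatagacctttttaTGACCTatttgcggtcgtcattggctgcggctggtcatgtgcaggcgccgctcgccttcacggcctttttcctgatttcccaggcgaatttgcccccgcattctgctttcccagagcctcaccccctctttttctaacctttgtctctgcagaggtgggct
TGATNNAT stood in 1 of the 8 windows, that of Hoxa2, and in 7.68% of 32851 mouse promoter windows of this length. AGGTCA stood in 2 of the 8, those of Hoxd3 and Hoxd4, and in 14.0% of all windows. TATAAA stood in 1 of the 8, that of Hoxd4, and in 12.4% of all. The 4-letter homeodomain core TAAT stood in 5 of the 8 and in 54.9% of all windows. The windows held between 3 CpG sites (Hoxd4) and 28 (Hoxa5), against a median of 6 over all windows. A match describes the letters and is not a site of binding. The annotated start of Hoxa3 lay upstream of those of Hoxa5 and Hoxa6, and that of Hoxd3 upstream of that of Hoxd4, so transcripts of neighbouring genes can overlap. Which transcripts each probe detects was not tested.

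Values below are log2 signals less the 75th percentile of their array, so 0 is the level of that percentile, and they are compared within a gene only. Differences carry the standard error of a limma fit over all 12 arrays, and adjusted p-values are limma's with Benjamini-Hochberg adjustment over the 14444 genes. A gene was called at an adjusted p under 0.05. Between 56.6% and 62.4% of spots were well above background, and 3 arrays a group limit the precision. Trp53, the target of the hairpin, stood at -0.56 ± 0.20 (SD, n = 3) in RASV12, -3.27 ± 0.25 in shp53, -3.61 ± 0.31 in the shp53-first and -3.99 ± 0.15 in the RASV12-first cells. All 10 fibroblast markers were well above background on every array. Of 9 macrophage and leukocyte markers, 9 were well above background on the shp53 arrays, 7 to 8 on the RASV12 arrays and 5 on the arrays with both vectors. Within each group a pair of arrays was closer to each other, with SDs of the difference from 0.21 to 0.37, than to the remaining array, with SDs from 0.62 to 0.81. The arrays that stood apart were replicate 2 of shp53 and of RASV12 and replicate 1 of both groups with 2 vectors. RNA came from whole cultures, so a smaller share of cells with a transcript and less of it in each cell cannot be told apart.

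Hoxa2, which patterns the hindbrain and the second pharyngeal arch, had the widest range. It was -3.92, -3.00 and -3.64 on the shp53 arrays and -3.64, -3.84 and -3.55 on the RASV12 arrays. In the shp53-first cells it was -0.64, -0.70 and -0.83, and in the RASV12-first cells -5.12, -5.38 and -5.38. The single-vector groups overlapped, all 3 shp53-first arrays lay above every other array, and all 3 RASV12-first arrays lay below every other.

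Hoxa3, needed for the thymus, the parathyroids and the pharyngeal arches they come from, was -0.47, 0.54 and -0.49 in shp53 and 0.04, -0.06 and -0.07 in RASV12. It was 1.79, 1.82 and 1.68 in the shp53-first cells and -0.39, -0.60 and -0.47 in the RASV12-first cells. The shp53-first arrays were again above all others, and the arrays of the other 3 groups lay between -0.60 and 0.54, the highest of them replicate 2 of shp53.

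Hoxa4, a gene of the neck region, was -4.90, -4.54 and -4.46 in shp53 and -4.02, -4.21 and -4.34 in RASV12. It was -3.57, -2.54 and -2.71 in the shp53-first cells and -3.99, -3.82 and -3.70 in the RASV12-first cells. No 2 groups overlapped, and the order from low to high was shp53, RASV12, RASV12-first and shp53-first.

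Hoxa5, active in the cervical and thoracic region and the lung mesenchyme, was -2.24, -0.77 and -2.22 in shp53 and -0.47, -0.86 and -0.47 in RASV12. It was -0.29, -0.09 and -0.08 in the shp53-first cells and -2.39, -2.61 and -2.34 in the RASV12-first cells. RASV12 and shp53-first arrays were high and RASV12-first arrays low, and the shp53 group was split, with replicate 2 at the level of RASV12 and the others near the RASV12-first cells.

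Hoxa6 and Hoxa7, the thoracic genes at the 5′ edge of the set, had narrower ranges. Hoxa6 was -4.81, -3.56 and -4.27 in shp53, -3.79, -3.63 and -4.23 in RASV12, -3.90, -3.65 and -3.49 in the shp53-first and -4.23, -4.88 and -5.21 in the RASV12-first cells. Hoxa7 was 1.71, 2.73 and 1.83 in shp53, 2.44, 2.20 and 2.41 in RASV12, 2.65, 2.21 and 2.56 in the shp53-first and 2.16, 2.26 and 2.02 in the RASV12-first cells. For Hoxa6 the RASV12-first arrays lay below all shp53-first arrays and, by under 0.01, below all RASV12 arrays, and the other pairs of groups overlapped. For Hoxa7 every pair of groups overlapped.

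Hoxd3, a paralog of Hoxa3 that acts on the neck vertebrae, was -3.78, -5.73 and -3.47 in shp53 and -5.38, -5.16 and -5.11 in RASV12. It was -2.74, -3.15 and -3.06 in the shp53-first cells and -4.84, -4.44 and -4.36 in the RASV12-first cells. The shp53-first arrays lay above all others, the RASV12-first arrays above those of RASV12, and replicate 2 of shp53 below every other array. Hoxd4, its 5′ neighbour in the cluster, was -1.24, -2.66 and -0.89 in shp53, -2.30, -1.94 and -2.14 in RASV12, -0.73, -1.04 and -0.99 in the shp53-first and -1.42, -0.96 and -1.19 in the RASV12-first cells. Here the 2 groups with both vectors overlapped each other and lay above RASV12.

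Hoxd1, the most 3′ gene of HoxD, was not well above background on any shp53 array (-7.92, -7.29 and -5.98) or RASV12 array (-7.81, -6.54 and -7.30). In the shp53-first cells it was well above background at -2.95 and -4.21 and not at -4.88. In the RASV12-first cells it was well above background at -4.16 and not at -6.45 and -6.40. Each single-vector array was put at the higher of its signal and the dimmest signal that counted as well above background on it. Against that level the shp53-first mean was an estimated 4.19-fold higher than in shp53 and 3.97-fold higher than in RASV12, with 2 of 3 arrays well above background. The RASV12-first mean was an estimated 1.32-fold and 1.26-fold higher, with 1 array well above background. Both means are over all 3 arrays and take in the signals that were not well above background. These are not strict lower bounds: -4.88 did not count on an array whose dimmest signal well above background was -5.46. For all 9 genes the shp53-first cells had the highest group mean. Its lead over RASV12 was only 0.20 for Hoxa6 and 0.13 for Hoxa7, with overlapping arrays. The share of all tested genes with their highest mean in these cells is not given here.

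**Figure D1:**
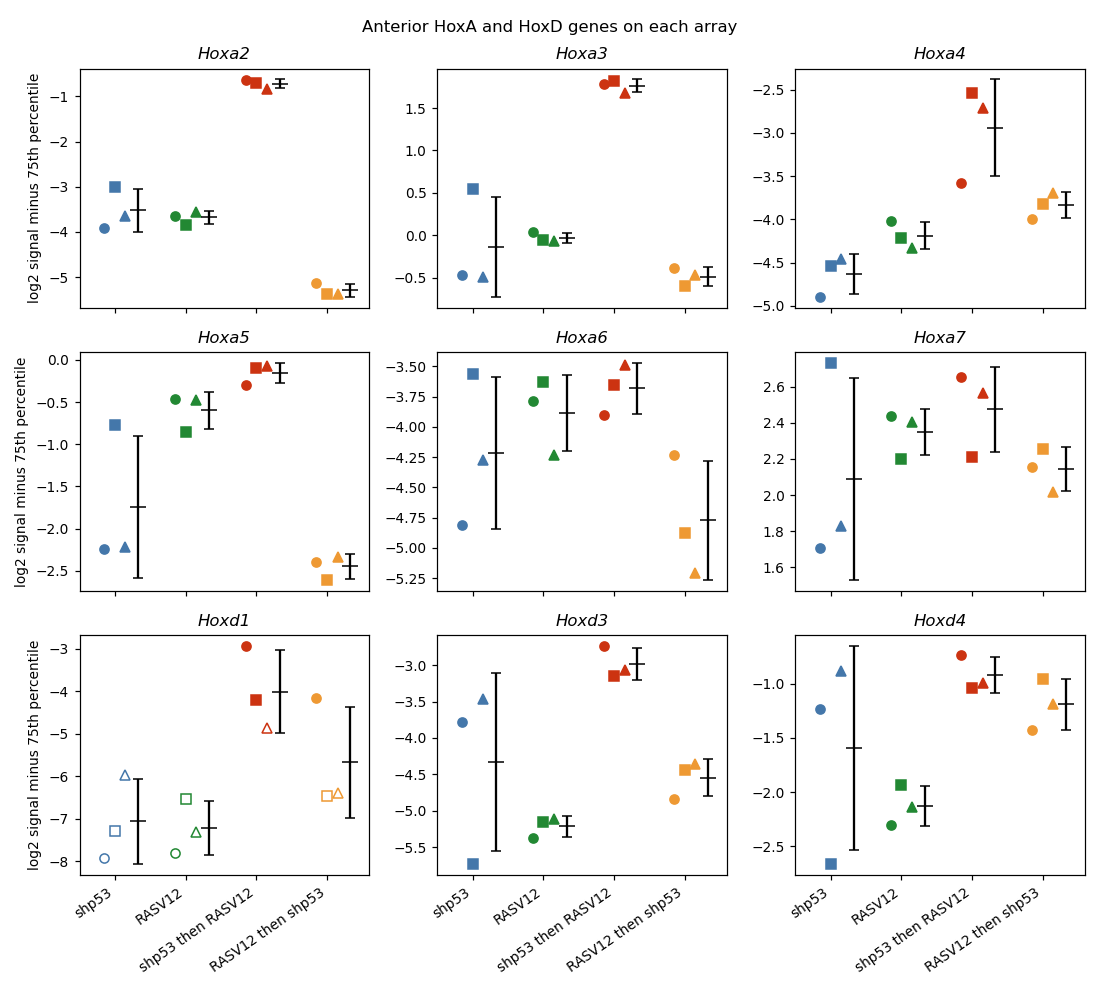
Log2 signal less the array's 75th percentile (vertical axes, 1 scale per gene) for the 9 genes in the 4 groups. Circles, squares and triangles are replicates 1, 2 and 3, open symbols are not well above background, and bars are the mean and SD of 3 arrays. Hoxa2 ran from -5.38 in the RASV12-first cells to -0.64 in the shp53-first cells. Replicate 2 of shp53 stood apart from the other shp53 arrays in Hoxa3, Hoxa5, Hoxa7, Hoxd3 and Hoxd4.

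The shp53-first cells were higher than shp53 cells in 5 of 8 tested genes and lower in 0. In this comparison 17.3% of all tested genes were called higher and 20.3% lower. Hoxa2 rose by 2.80 ± 0.21 (6.95-fold, limma adjusted p = 8.65e-06), Hoxa3 by 1.90 ± 0.24, Hoxa4 by 1.69 ± 0.25, Hoxa5 by 1.59 ± 0.34 and Hoxd3 by 1.34 ± 0.47 (limma adjusted p = 0.0456). Hoxa6, Hoxa7 and Hoxd4 differed by 0.53, 0.39 and 0.67 and were not called. The median of the 8 was 1.46, against 0.03 over all genes. Along HoxA the difference was smaller at each gene from Hoxa2 to Hoxa7, and no test of that order was made. Within the 3 slides, each of which held 1 array of every group, Hoxa2 was higher by 2.30 to 3.29 and Hoxa5 by 0.67 to 2.14. In the same comparison 7 of 9 macrophage and leukocyte markers fell, and their part in these differences was not tested. The call of Hoxd3 was lost without any 1 of 8 arrays, the 3 RASV12, the 3 shp53-first and RASV12-first replicates 2 and 3 (limma adjusted p from 0.0587 to 0.102). Without replicate 2 of shp53 its difference was 0.64 (limma adjusted p = 0.0317) and Hoxa7 was called at 0.71 (limma adjusted p = 0.00936). With the slide as a block and only these groups, Hoxd3 was not called (limma adjusted p = 0.105).

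Against RASV12 alone, the shp53-first cells were higher in 5 of 8 genes and lower in 0, where 10.2% of all tested genes were called higher and 15.1% lower. This comparison shares the shp53-first arrays with the one before. Hoxa2 differed by 2.96 ± 0.21 (7.75-fold, limma adjusted p = 1.60e-05), Hoxd3 by 2.23 ± 0.47 (4.69-fold, limma adjusted p = 0.00736), Hoxa3 by 1.79 ± 0.24, Hoxa4 by 1.25 ± 0.25 and Hoxd4 by 1.21 ± 0.37. Hoxa5, Hoxa6 and Hoxa7 differed by 0.44, 0.20 and 0.13 and were not called. The median was 1.23, against -0.05 over all genes. Within slides Hoxa2 was higher by 2.72 to 3.14 and Hoxd4 by 0.90 to 1.57. The call of Hoxd4 was lost without any 1 of the 6 arrays compared or RASV12-first replicates 2 or 3 (limma adjusted p up to 0.115), and Hoxa5 was called without shp53 replicate 2 (limma adjusted p = 0.0497). With the slide, which is the replicate number, as a block, the calls of Hoxd4 (limma adjusted p = 0.0527, all arrays) and Hoxa4 (limma adjusted p = 0.0803, these groups alone) were lost.

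The RASV12-first cells were lower than RASV12 cells in 2 of 8 genes, Hoxa2 and Hoxa5, and higher in 0, where 17.2% of all tested genes were called higher and 21.7% lower. Hoxa2 fell by 1.61 on the log2 scale (SE 0.21, limma adjusted p = 0.000286) and Hoxa5 by 1.85 (SE 0.34, limma adjusted p = 0.00189). The 2 genes fell within each slide, Hoxa2 by 1.48 to 1.82 and Hoxa5 by 1.76 to 1.92. Hoxa4 differed by 0.35, with groups that did not overlap, and was not called. Hoxa3 and Hoxa6 differed by -0.46 and -0.89 and Hoxd3 and Hoxd4 by 0.67 and 0.94, also without overlap, and none of the 4 was called. Without replicate 2 of shp53, which takes part only in the estimate of the spread, these 4 were called (limma adjusted p from 0.00246 to 0.0279) and the count was 6. Leaving that array out changes the spread of all genes, and the count over all genes in that fit is not given here. Hoxa6 was also called without shp53 replicate 1 (limma adjusted p = 0.0398) or RASV12-first replicate 1 (limma adjusted p = 0.0205), and Hoxd4 without shp53 replicate 3 (limma adjusted p = 0.0447) or with the slide as a block in these groups alone (limma adjusted p = 0.0242). The median was -0.33, against -0.07 over all genes.

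Between the 2 orders of the same vectors, 5 of 8 genes were lower in the RASV12-first cells and 0 higher, where 8.47% of all tested genes were called lower and 7.33% higher. Hoxa2 was lower by 4.57, 23.7-fold (-4.57 ± 0.21, limma adjusted p = 4.76e-07). The size rests on RASV12-first values near the dimmest signals well above background on those arrays (-5.61, -6.09 and -6.28). Under the normexp background correction described below, with an offset of 50, the difference of Hoxa2 was -1.11 and was not called (limma adjusted p = 0.706). Its call held under the other alternatives. Hoxa5 differed by -2.29 ± 0.34 (4.90-fold, limma adjusted p = 0.00123), Hoxa3 by -2.25 ± 0.24 (4.75-fold, limma adjusted p = 0.000144), Hoxd3 by -1.56 ± 0.47 and Hoxa4 by -0.90 ± 0.25. Hoxa6, at -1.09 ± 0.33, had an adjusted p of 0.0503 in limma, and Hoxa7 and Hoxd4 differed by -0.33 and -0.27. The median was -1.33, against 0.00 over all genes. Within slides Hoxa2 differed by -4.68 to -4.48, Hoxa3 by -2.42 to -2.14 and Hoxa5 by -2.52 to -2.10. The calls of Hoxa4 and Hoxd3 were near the threshold. Hoxa4 lost its call without any 1 of 6 arrays, RASV12 replicate 1, shp53-first replicates 2 and 3 and the 3 RASV12-first replicates (limma adjusted p from 0.0501 to 0.122). Hoxd3 lost it without any 1 of 10 arrays, all but shp53 replicates 2 and 3 (limma adjusted p from 0.0546 to 0.111), and Hoxa6 was called without shp53 replicate 1 or 2 or RASV12-first replicate 1 (limma adjusted p from 0.0210 to 0.0373). With the replicate block, Hoxd3 had a limma adjusted p of 0.0530 over all arrays and Hoxa4 one of 0.0563 in these groups alone. Quantile scaling, median scaling and no filter on dim probes also ended both calls, and the authors' deposited log2 table ended that of Hoxd3 (limma adjusted p = 0.0547).

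Against shp53, the RASV12-first cells were lower in 1 of 8 genes and higher in 1. Hoxa2 differed by -1.77 ± 0.21 (3.42-fold, limma adjusted p = 0.000102) and Hoxa4 by 0.79 ± 0.25 (limma adjusted p = 0.0250). Over all tested genes 23.8% were called lower and 21.7% higher. Within slides Hoxa2 differed by -2.38 to -1.20 and Hoxa4 by 0.72 to 0.90. The other 6 differed by -0.71 (Hoxa5) to 0.40 (Hoxd4) and were not called, and the median of the 8 was -0.28, against 0.02 over all genes. The call of Hoxa4 was lost without shp53 replicate 1 or RASV12-first replicates 2 or 3 (limma adjusted p from 0.0634 to 0.0958), and Hoxd3 was called without shp53 replicate 2, at -0.92 (limma adjusted p = 0.00489).

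RASV12 cells were higher than shp53 cells in 1 of 8 genes and lower in 0. Hoxa5 differed by 1.14 ± 0.34 (2.21-fold, limma adjusted p = 0.0287), where 14.3% of all tested genes were called higher and 12.8% lower. The median was 0.18, against 0.05 over all genes. The 2 groups overlapped in Hoxa5, and within slides the difference was 1.77, -0.09 and 1.75. The call was lost without replicate 1 or 3 of either group (limma adjusted p from 0.0882 to 0.114), and with the slide as a block in these groups alone (limma adjusted p = 0.157). Leaving out shp53 replicate 2 gave a fit whose count over all genes is not given here. Without that array there were 5 calls: Hoxa5 at 1.63, Hoxa3 at 0.45, Hoxa7 at 0.58, Hoxd3 at -1.59 (limma adjusted p = 0.000343) and Hoxd4 at -1.07 (limma adjusted p = 0.00305). On that array the summed macrophage and leukocyte marker level was 3.54 on the log2 scale, against 6.48 and 6.47 on the other shp53 arrays. It was 3.24 to 4.38 in RASV12, 3.16 to 3.63 in the shp53-first and 2.59 to 3.19 in the RASV12-first cells. The sum is led by bright markers such as Itgam, at 2.25 to 4.18 over the 12 arrays. The mean log2 level of the 9 markers on that array was -1.20, against 2.63 and 2.61 on the other shp53 arrays. That mean was -2.27 to -1.64 in RASV12, -4.14 to -3.45 in the shp53-first and -4.30 to -3.97 in the RASV12-first cells. The part of macrophages and leukocytes in the differences from shp53 was not tested. Ptprc, which marks all leukocytes, was well above background on 3 of the 12 arrays, those of shp53. Between the 2 orders 0 of the 9 markers were called in limma, with 0 at an unadjusted p under 0.05.

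The other genes of each cluster were set beside the 3′ genes without a test between them. Hoxa9, Hoxa10, Hoxa11 and Hoxa13, which pattern the trunk and limb, were not called in the shp53-first cells against shp53 or against RASV12, where they differed by -0.18 to 0.63 and by -0.30 to 0.50. In HoxD the 5′ genes went the other way: Hoxd13 differed by -5.16 ± 0.71 against shp53 and by -4.73 ± 0.71 against RASV12, with 2 of 3 shp53-first arrays well above background, and Hoxd11 by -2.66 and -3.19. In the RASV12-first cells Hoxa10, Hoxa11, Hoxa13 and Hoxd9 to Hoxd13 were not well above background on any array, while 8 of the 9 genes followed here, all but Hoxd1, were well above background on all 3. Of the 11 other HoxA and HoxD genes tested, 0 rose and 9 fell in the RASV12-first cells against either single vector, and 5 and 4 fell in the shp53-first cells against shp53 and against RASV12. Hoxd8, between the 2 sets in HoxD, was called in none of the 6 comparisons.

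**Figure D2:**
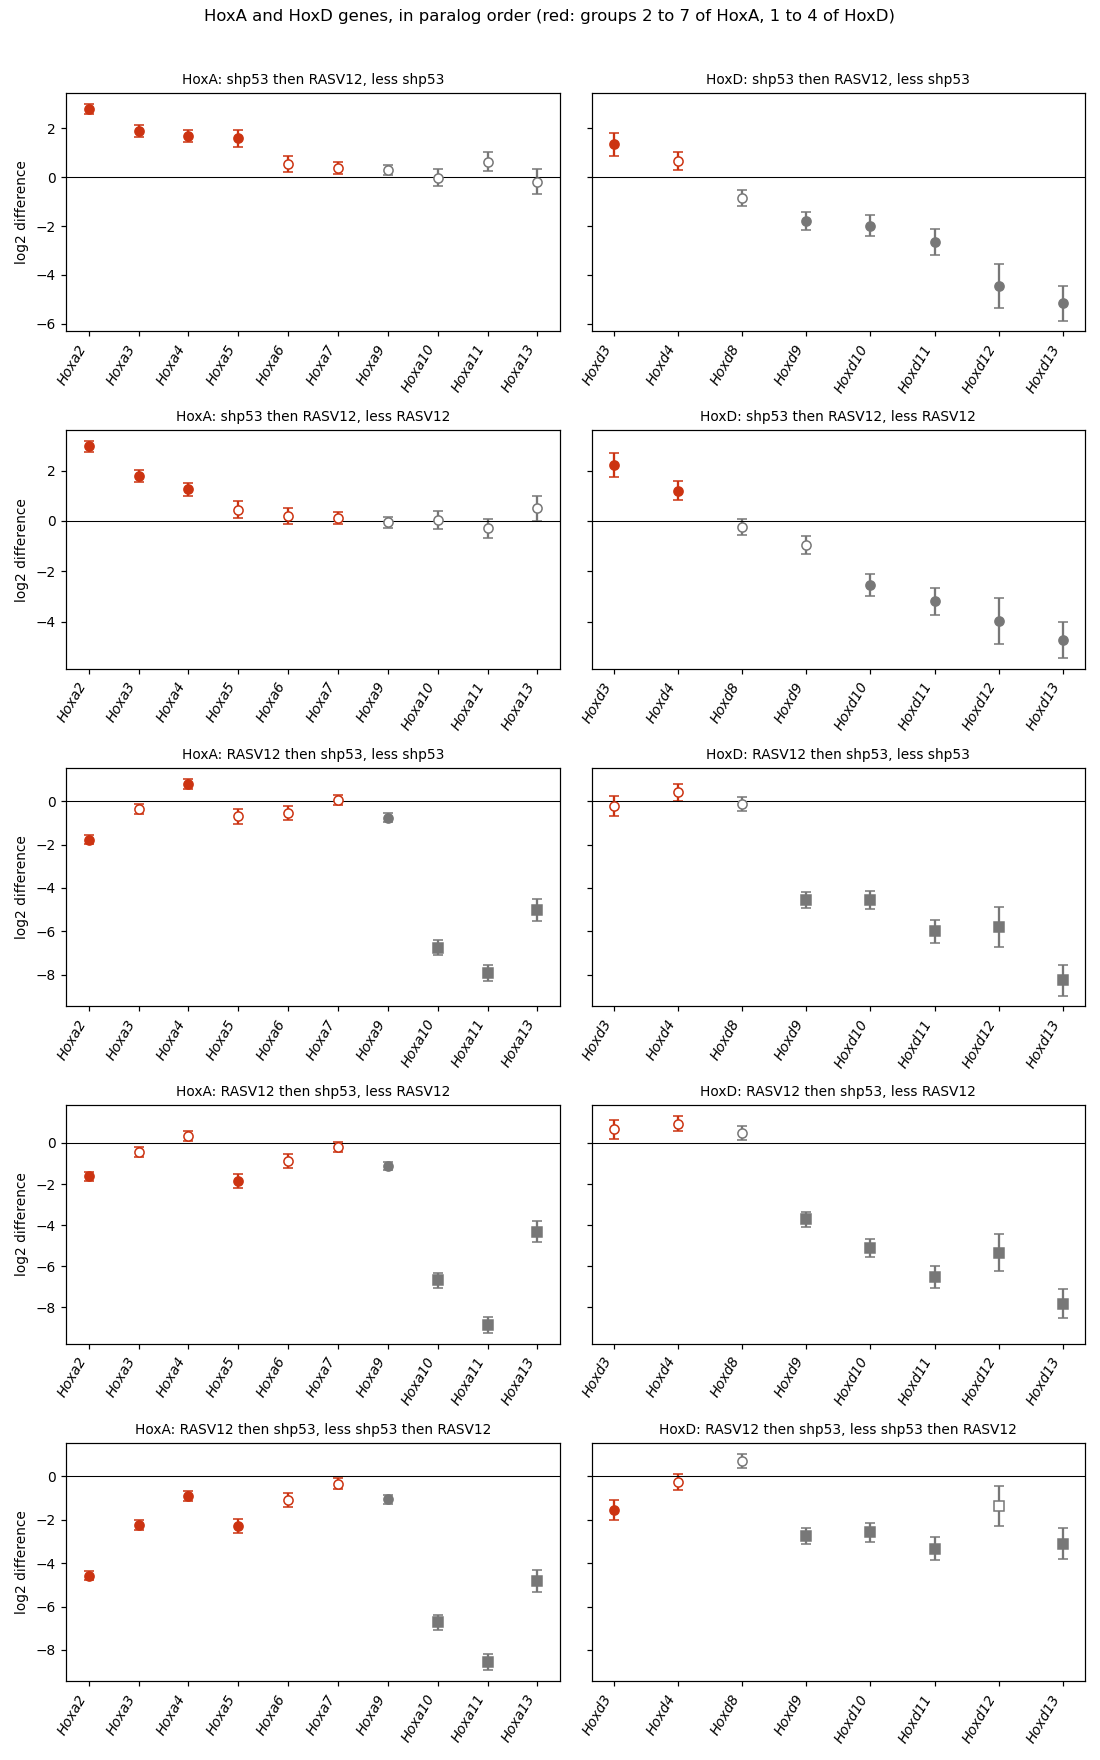
Log2 differences (vertical axes) with the limma standard error for HoxA and HoxD genes that were tested and are reported here, in paralog order, in 5 comparisons. Red marks the 8 tested genes followed here and grey the others, filled symbols were called, and squares had 1 group with no array well above background, so their size depends on values near background. In the upper 2 rows Hoxa2 had the highest difference plotted, 2.80 and 2.96, and Hoxd13 the lowest, -5.16 and -4.73.

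The paralogs of the same positions in HoxB and HoxC were tested in 9 of 10 genes. In the RASV12-first cells against the shp53-first cells 6 rose and 0 fell: Hoxc6 by 4.13 ± 0.25, Hoxc4 by 3.61 ± 0.22, Hoxc5 by 3.43 ± 0.40 and Hoxb5 by 1.11 ± 0.11. In the shp53-first cells against shp53, 6 rose and 3 fell. Hoxb3, the HoxB paralog of Hoxa3 and Hoxd3, rose by 1.73 ± 0.17 and Hoxb5 by 1.30 ± 0.11, while Hoxc4 fell by 3.16 and Hoxc6 by 2.56 on the log2 scale. Against RASV12, 4 rose and 3 fell in these cells, and in the RASV12-first cells 7 rose and 0 fell against either single vector. In RASV12 against shp53, 4 rose and 0 fell. Between the orders the median of these paralogs was 1.11, against 0.00 over all genes. These are descriptions and no test set the clusters against each other.

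Antisense and other noncoding RNAs of the clusters were tested in 4 of 10 listed, of which 0 rose and 2 fell between the orders. Hoxaas2, antisense RNA within the 3′ part of HoxA, had group means of -3.25 in shp53, -4.28 in RASV12, -2.86 in the shp53-first and -5.22 in the RASV12-first cells. It differed by -2.36 ± 0.23 in the RASV12-first from the shp53-first cells (limma adjusted p = 8.79e-05), and was higher by 1.42 ± 0.23 in the shp53-first cells than in RASV12, the only one of the 4 called there. Haglr, antisense in the HoxD cluster, differed by -0.96 ± 0.28 in the shp53-first cells from shp53 (limma adjusted p = 0.0224), the only one called there. In the other comparisons 2 fell (RASV12 against shp53), 1 rose and 2 fell (RASV12-first against RASV12), and 1 rose and 3 fell (RASV12-first against shp53). Of 8 tested genes that flank the clusters, 0 were called between the 2 orders and in either group with both vectors against RASV12 in limma, with 1, 3 and 1 at an unadjusted p under 0.05 (the orders, RASV12-first, shp53-first). Against shp53, 1 rose and 1 fell in RASV12 and in the shp53-first cells and 3 rose and 1 fell in the RASV12-first cells. Skap2, beside HoxA, fell against shp53 in the other 3 groups, by 0.86 in RASV12, 1.13 in the shp53-first and 1.01 in the RASV12-first cells on the log2 scale. Mtx2, beside HoxD, rose in the same 3 comparisons by 0.80, 0.47 and 0.57.

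Among Hox partner proteins, 1 of 8 tested genes rose and 2 fell between the orders. Pknox2 was an estimated 17.2-fold lower in the RASV12-first cells, where it was not well above background. Meis3 differed by -0.38 ± 0.11, and Pbx3 was higher by 0.73 ± 0.20. In the shp53-first cells against RASV12, 5 rose and 0 fell, among them Pknox2 by 1.5 ± 0.21, Pbx2 by 0.61 ± 0.12 and Meis2 by 0.76 ± 0.19. Against shp53, 1 rose and 2 fell in the shp53-first cells, and 2 rose and 1 fell in the RASV12-first cells, which against RASV12 had 3 higher and 2 lower. RASV12 against shp53 had 0 higher and 3 lower. Between the orders the median of this list was -0.15, that of the retinoic acid list -0.35 and that of the Polycomb and trithorax list 0.14.

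Of 16 tested genes of the retinoic acid pathway, 0 rose and 5 fell in the RASV12-first against the shp53-first cells. Aldh1a2, which makes retinoic acid, was an estimated 3.64-fold lower. Dhrs3, which turns retinal back to retinol, differed by -2.74 ± 0.41, and Rarb, a receptor and known target of retinoic acid, by -3.33 ± 0.57. In the shp53-first cells against shp53, 3 rose and 4 fell. Stra6, the retinol importer, was an estimated 84.5-fold higher and Crabp1 higher by 4.22 ± 0.40, while Aldh1a2 fell by 3.12 and Aldh1a1 by 4.16 on the log2 scale. Against RASV12, 2 rose and 3 fell in the same cells. The RASV12-first cells had 3 higher and 9 lower against shp53 and 2 higher and 6 lower against RASV12, and RASV12 had 2 higher and 2 lower against shp53.

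Of 19 tested Polycomb and trithorax genes, 1 rose and 1 fell between the 2 orders. The one that rose was Ash2l, a trithorax subunit, by 0.52 ± 0.14. In both groups with 2 vectors 7 were called against each single vector. In the RASV12-first cells against RASV12, 7 rose and 0 fell, and in each of the others 6 rose and 1 fell. Over all tested genes 10.2% to 21.7% were called higher and 15.1% to 23.8% lower in these comparisons. Suz12 was higher by 0.85 and 0.65 in the shp53-first cells against shp53 and RASV12, and by 0.86 and 0.66 in the RASV12-first cells; Ezh2, the methyltransferase, was higher by 1.28, 1.34, 1.53 and 1.59 in the same order. Ring1 was lower in RASV12 than in shp53, by -0.61 ± 0.15, and was the only gene of the list called there.

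3 of 8 listed CDX and early activators were tested. Between the orders 1 rose and 1 fell. Egr2, an activator of Hoxa2 in the hindbrain, was higher by 1.32 ± 0.31 in the RASV12-first than the shp53-first cells, and differed from shp53 by -2.82 in RASV12 and -2.89 in the shp53-first cells. Of 28 tested transcription factors of position outside the clusters, 3 rose and 13 fell between the orders. Tbx1 and Six2 were an estimated 204-fold and 267-fold lower in the RASV12-first cells, Tbx18 an estimated 14.7-fold and Tbx4 an estimated 48.4-fold. In the other comparisons 3 rose and 8 fell (RASV12 against shp53), 9 and 9 (shp53-first against shp53), 10 and 5 (shp53-first against RASV12) and 5 and 17 (RASV12-first against either single vector).

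When the 2 most similar arrays of a group were averaged, so that each group counted as 2, there were 2, 0, 1, 3, 1 and 1 calls in the order of the plot of alternatives, whose first panel sets the RASV12-first against the shp53-first cells; Hoxa5 then lost every call. Background correction by normexp with an offset of 50, from each spot's median pixel and its local background, left 1, 0, 0, 1, 0 and 1, which were all Hoxa3. Under it the called differences of Hoxa4 and Hoxd3 turned to 0.25 and 0.30 between the orders and to -0.16 and -0.49 in the shp53-first cells against shp53, and that of Hoxa2 to 0.96 in the RASV12-first cells against RASV12. With extreme local backgrounds replaced before normexp, none of these called differences turned. Hoxa2 and Hoxa5 then kept their calls between the orders and in the shp53-first cells against shp53. Hoxa4 and Hoxd3 were not called between the orders. Hoxa2 in the RASV12-first cells was not called, at -0.35 against RASV12 (limma adjusted p = 0.136) and -0.39 against shp53 (limma adjusted p = 0.0822).

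**Figure D3:**
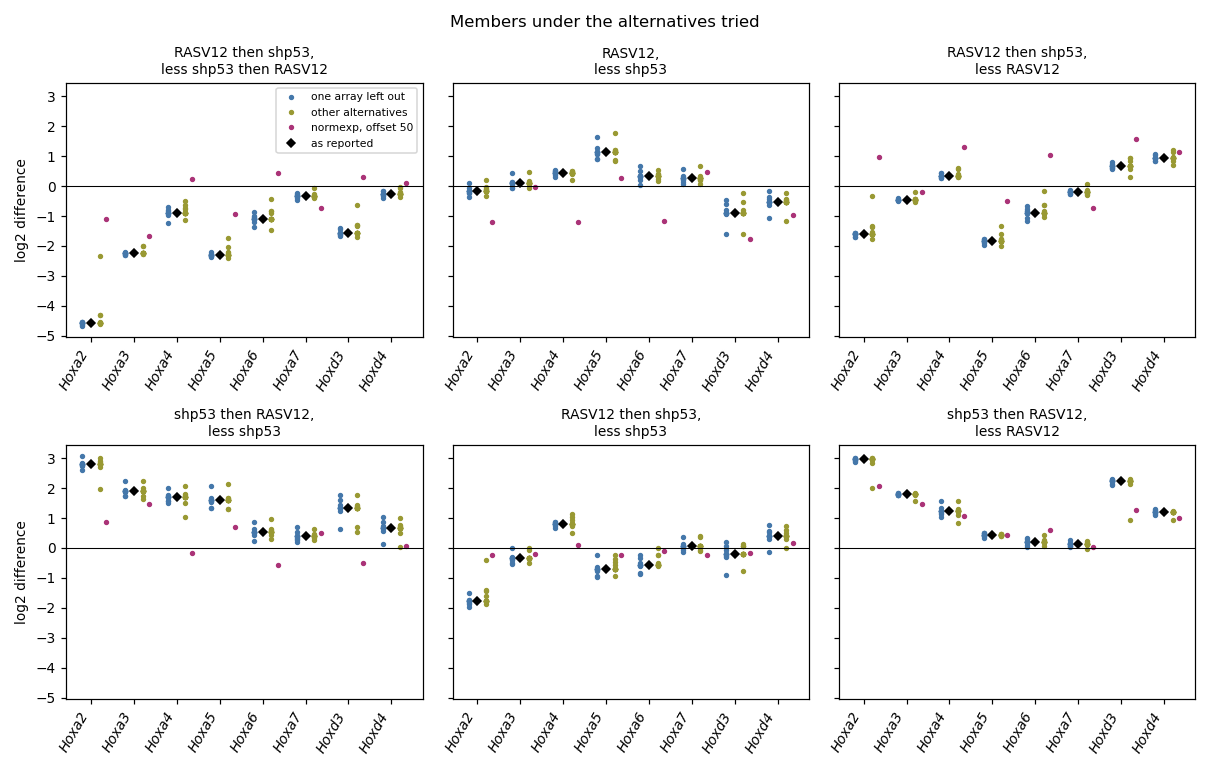
Log2 differences (vertical axis, 1 scale) of the 8 tested genes in the 6 comparisons as reported (diamonds), with 1 array left out (blue), under normexp background correction with an offset of 50 (purple) and under the other alternatives (olive). Hoxa2 between the orders was -4.57 as reported and -1.11 in purple. A called direction turned in purple for Hoxa2, Hoxa4 or Hoxd3 in 3 of the 6 panels. No called direction turned once extreme local backgrounds were replaced before normexp (among the olive points).

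The genes with profiles closest to 4 members over the 12 arrays, each profile centred on its own mean, were named for tested members whose group means spanned at least 2 log2 units, with the root mean square distance over 14382 other genes. For Hoxa2 they were Npnt (0.50), Ebf3 (0.58) and Naalad2 (0.59). For Hoxa3 they were Ets2 (0.38), Zbtb32 (0.42) and Rnf125 (0.43), and for Hoxa5 Sec14l2 (0.36), Slc12a2 (0.44) and Snai1 (0.45). For Hoxd3 they were Penk (0.43), Cytip (0.47) and AI606473 (0.50). None of these 12 was another of the genes followed here. Among the followed genes the closest pairs were Hoxa6 and Hoxa7 (0.43) and Hoxd3 and Hoxd4 (0.51), each pair neighbours in its cluster. The other tested neighbours lay from 0.61 (Hoxa5 and Hoxa6) to 0.89 (Hoxa4 and Hoxa5) apart. Hoxa3 and Hoxa5, which are not neighbours, lay 0.58 apart. The distance is not scaled by a gene's range, so genes that vary little lie close.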

How the data were processed

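RNA of 12 cultures (100 ng each, per the labels' protocols) was measured on 1-colour Agilent arrays. The deposited scanner output holds signal intensity per spot after background subtraction and detrending within the array, without scaling between arrays, beside raw pixel intensity and flags of 0 or 1. It came from Feature Extraction, version 11.5.1.1 per the file headers and 10.7.3.1 per the submitters' processing notes. A deposited log2 table of 25916 probes served as an alternative. Its scale and centring are unstated; set against the scanner values it matched log2 signal less the 75th percentile, centred per probe on the shp53 median (r from 0.990 to 0.9998).

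Of 44397 spots an array, 43020 were not controls; 1717 spot values (0.333%) flagged as non-uniform or outlying were left out and 0 were saturated. Gene names came from accessions looked up in RefSeq, whose build differs from that of the headers. The brightest kept probe stood for a gene. Folds written as "estimated" set the brighter group's mean against the dimmer group's arrays. Each of those was put at the higher of its signal and its lowest signal well above background. Some signals above that lowest one were not flagged as well above background, so these folds are not strict lower bounds.

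limma 3.58.1 (R 4.3.3) fitted 1 mean per group. With 3 arrays against 3, an exact permutation test cannot give a p under 0.1. The slide has the replicate's number and is 1 block with it; deviations of same-numbered arrays correlated at 0.32 to 0.60 between the 2 orders, where the numbers pair the samples by that check, and not in all 3 pairs of any other comparison. The fit was tested on simulated data with errors drawn independently for each gene and array. Those data hold neither arrays that stand apart nor the correlation between the orders, so the fit was not tested under these. The genes, lists and tests were chosen with earlier results of these data known. Genes of a list were named by smallest adjusted p, at most 4 a comparison. Hoxa9, Hoxa10, Hoxa11, Hoxa13, Hoxd8 and, in 2 comparisons, Ezh2 were named beyond that rule after their values were seen. Some genes that the rule or the lists hold are counted but not reported by name here.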

Additional observations from a re-analysis of the deposited data

How the results depend on the processing

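As reported, 5 genes were called between the 2 orders, 1 for RASV12 against shp53, 2 for RASV12-first against RASV12, 5 for shp53-first against shp53, 2 for RASV12-first against shp53 and 5 for shp53-first against RASV12; counts below keep this order. Normexp with an offset of 50 gave 1, 0, 0, 1, 0 and 1, and called only 65 to 823 genes of all those tested. It turned 5 called differences: Hoxa4 to 0.25 and Hoxd3 to 0.30 between the orders, Hoxa2 to 0.96 in RASV12-first against RASV12, and Hoxa4 to -0.16 and Hoxd3 to -0.49 in shp53-first against shp53. Some spots had extreme local backgrounds: 77 exceeded the median of their array by over 5 times. With these set to the median, an alternative chosen after seeing the data, 0 of these turned, Hoxa2 lost its calls in the third and the fifth comparison and Hoxa4 and Hoxd3 theirs between the orders, and the counts that moved were 3, 1 and 1 in the first, the third and the fifth comparison. Quantile scaling, the array median, no filter on dim probes and an adjusted p under 0.01 each gave 3 between the orders. The array median moved the median of all genes by 0.34 in RASV12-first against shp53 and by less in the others. Fitting only the 2 groups gave 0 for RASV12 against shp53 and 5 for RASV12-first against RASV12. The replicate block in fits of 2 groups gave 0 for RASV12 against shp53; with it Hoxa5 there had a limma adjusted p of 0.157, Hoxd3 in shp53-first against shp53 0.105, Hoxa4 in shp53-first against RASV12 0.0803 and Hoxd4 in RASV12-first against RASV12 0.0242. Over all arrays the block gave Hoxd4 in shp53-first against RASV12 0.0527. Beside these and the calls given for the 2 orders, the block changed no other call. An adjusted p under 0.01 gave 0 and 1 in the second and the fifth comparison, and a 2-fold limit 1 in the fifth. Leaving out 1 array gave 3 to 6, 0 to 5, 2 to 6, 4 to 6, 1 to 3 and 4 to 6. Chosen after seeing the data, leaving out the 4 arrays that stood apart gave 6 and 6 in the second and the third comparison, and averaging the closest pairs gave 2, 0, 1, 3, 1 and 1. Leaving out the 4 also added calls of Hoxa6 in the first comparison, Hoxa6 and Hoxa7 in the fourth, Hoxd3 in the fifth and Hoxa5 in the sixth. Among the alternatives, counts over all genes are given here only for normexp with an offset of 50. Of 1392 values of single genes, 1256 kept direction and side of the threshold or were called in neither fit, 28 of these with the other sign; 93 lost the call, 38 gained it and 5 turned. The calls of Hoxa3 between the orders and in shp53-first against shp53 held under all 29 alternatives, and those of Hoxa2 in these comparisons under all but normexp with an offset of 50.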
